A study of Mus musculus with 24 samples.

Results

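Macrophages of GLUT1 knockout (KO) mice, whose myeloid cells are to lose the glucose transporter gene Slc2a1, were activated with lipopolysaccharide (LPS) and interferon-gamma and compared with unstimulated cells of the same genotype. The comparison used the 4 one-colour Agilent arrays titled GLUT1 KO M1 and the 4 titled GLUT1 KO M0, 8 of the 24 arrays of the series, chosen by their titles. KO M1 cells were treated with 5 ng/ml LPS and 10 ng/ml interferon-gamma for 24 h, and KO M0 cells were left untreated for the same time. Both came from mice with floxed Slc2a1 and LysMCre, a Cre recombinase driven by the lysozyme gene Lyz2, so that deletion is limited to cells that have switched on this gene. For 6 days beforehand, marrow cells of all groups grew in 20 ng/ml M-CSF, the growth factor that turns them into macrophages. The 4 WT M1 and 4 WT M0 arrays, of Slc2a1 fl/fl floxed controls treated in the same ways, were used to test where the response of KO cells differed. The labels call the 4 replicates of each group biological and do not say which mice they came from.

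LPS is sensed by Toll-like receptor 4 and interferon-gamma by its own receptor, which signals through the kinases Jak1 and Jak2. Together they turn macrophages into cells that make nitric oxide, itaconate, inflammatory cytokines and antigen-presenting molecules, and that stop dividing. In macrophages with intact GLUT1 this activation is known to come with a larger uptake of glucose and more glycolysis.

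The level of a gene is given as its log2 intensity relative to the 75th percentile of the array, so that 0 marks the 75th percentile, and levels are never compared between genes because each probe has its own brightness. A response is KO M1 minus KO M0, a log2 difference ± its standard error in limma, whose p-values were adjusted by Benjamini-Hochberg over all 25644 genes tested, and genes with an adjusted p under 0.05 are called. Values of single arrays are listed in the order of replicates 1 to 4. The 75th percentile was 2271, 2360, 2491 and 2253 intensity units on the KO M1 arrays and 4362, 3273, 3778 and 2644 on the KO M0 arrays, and 54 to 58.7% of the probes were well above background in KO M1 against 64.8 to 71.4% in KO M0. KO M1 arrays were thus dimmer than KO M0 arrays before scaling. Fewer cells of a type and less RNA per cell cannot be told apart on such arrays. Arrays of a group correlated at r = 0.969 to 0.990 in KO M1 and 0.961 to 0.989 in KO M0, and their number limits the precision.

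The arrays lay on 3 slides, each with 1 full set of the 6 groups and 1 further pair, and the 3 further pairs made a 4th set that stood apart. In this set, to which KO M1 replicate 3 and KO M0 replicate 2 belong, the X-inactivation RNA Xist was well above background, and Ddx3y, Eif2s3y and Uty from the Y chromosome were not, the reverse of the other 6 KO arrays, while Kdm5d, also from the Y chromosome, was well above background on all 8. The other pairs of a set were replicate 1 of both states, KO M1 replicate 2 with KO M0 replicate 3, and replicate 4 of both states. Counts and medians without set 4 are given where they bear on a result.

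The targeted gene was examined first. Slc2a1, which encodes GLUT1, was read by 1 probe on chromosome 4 (mm9 118809864 to 118809923), whose position in the gene relative to the floxed part no source used here gives, so it checks no deletion. Its level was 5.52, 5.54, 5.26 and 5.41 in KO M1, against 2.52, 1.35, 1.98 and 1.91 in KO M0. All KO M1 arrays lay above all KO M0 arrays, with a response of 3.49 ± 0.34 (adjusted p = 1.74e-08). In WT cells the level was 5.55, 5.31, 4.44 and 5.29 in M1 and 3.19, 1.52, 2.1 and 2.14 in M0. The responses of KO and WT cells did not differ past the threshold (0.58 ± 0.47, 95% interval -0.41 to 1.57, limma adjusted p = 0.411). Lyz2, whose promoter drives the Cre, was at 4.21, 3.57, 4.72 and 3.75 in KO M1, against 4.14, 5.82, 3.91 and 3.99 in KO M0, and these ranges overlapped (adjusted p = 0.382).

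The labelled cell type was checked against its markers. All 10 macrophage markers were well above background on every KO M1 and KO M0 array, and their summed linear level, relative to the 75th percentile, was 547.2 to 763.8 in KO M1 against 478.6 to 613.2 in KO M0. Of the 10, 4 were called higher and 1 lower, and after quantile normalization 1 higher and 5 lower. The summed level of 15 neutrophil markers was 112.8 to 189.7 in KO M1 against 104.5 to 298.4 in KO M0, with 13 to 15 of 15 well above background in KO M1 and 14 to 15 in KO M0. Of these 15, Ly6g (2.69) and Elane (0.69) were called higher in KO M1. Elane was no longer called without KO M1 replicate 1 (0.53), without KO M0 replicate 3 (0.55) or after quantile normalization (0.46). A further 4 were called lower, and the lowest response of the list was -6.29. The other 9 were not called, among them S100a8 (-0.39) and S100a9 (-0.21). For 9 dendritic cell markers the sum was 178.0 to 250.6 in KO M1 against 41.2 to 90.2 in KO M0, mostly through Bst2, which interferon is known to induce in many cells, and 6 of 9 were called higher. The 6 B cell markers summed to 0.316 to 0.399 in KO M1 against 1.1 to 3.74 in KO M0, and the 6 T and NK cell markers to 3.98 to 5.31 against 2.06 to 3.67. The sums were 21.3 to 39.6 in KO M1 against 4.86 to 9.94 in KO M0 for 5 endothelial markers, 1.39 to 2.47 against 0.837 to 1.56 for 7 mast cell and basophil markers, 0.601 to 2.97 against 0.603 to 4.17 for 7 stromal markers, and 2.25 to 3.71 against 3.03 to 6.08 for 4 erythroid markers. Sums follow their brightest members. Of the B cell markers 1 was called higher and 1 lower, with a median response of 0.25 and a lowest of -4.38. Higher calls numbered 3 for T and NK cell markers and 2 for endothelial markers (highest response 5.90). They numbered 1 each for mast cell and basophil markers and for stromal markers. These lists had no lower call. Of the erythroid markers 1 was called higher and 1 lower. Of all genes 32% were called higher and 24.4% lower. Of the 6 B cell markers, 2 to 5 were well above background on a KO M1 array and 5 to 6 on a KO M0 array. Of the 6 T and NK cell markers 5 were so in KO M1 and 6 in KO M0. Of the 7 mast cell and basophil markers 2 to 6 were so in KO M1 and 4 to 6 in KO M0. The B cell gene Ebf1, the NK cell gene Klrb1c and the mast cell gene Cma1 were not so on any KO M1 array. Markers that failed the filter on dim probes, such as Cd8a, Cd3g, Ncr1, Xcr1 and Tek, were not tested. The part of other cells in the responses was not tested.

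Activation changed 14450 of 25644 genes (56.3%) in KO macrophages, 8205 of them higher (32%) and 6245 lower (24.4%). Counts of genes that rose or fell in the lists below are to be set against these shares. Changes of at least 2-fold were called in 3979 genes that rose (15.5%) and 4018 that fell (15.7%). In 7239 genes (28.2%) all KO M1 arrays lay above all KO M0 arrays, and in 5799 (22.6%) all lay below. Among the called genes with a value in every set, 95.9% had the same sign in the 4 sets, against 66.3% of all genes. Calls were made on these same arrays and are part of all genes, so this agreement follows largely from the choice and is no finding. The median response of all genes was 0.22, and it was 0.041 after quantile normalization, which also changed the split of calls to 6638 higher and 7403 lower. Directions that quantile normalization turned are named where they occur, for named genes called with or without it.

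**Figure D1:**
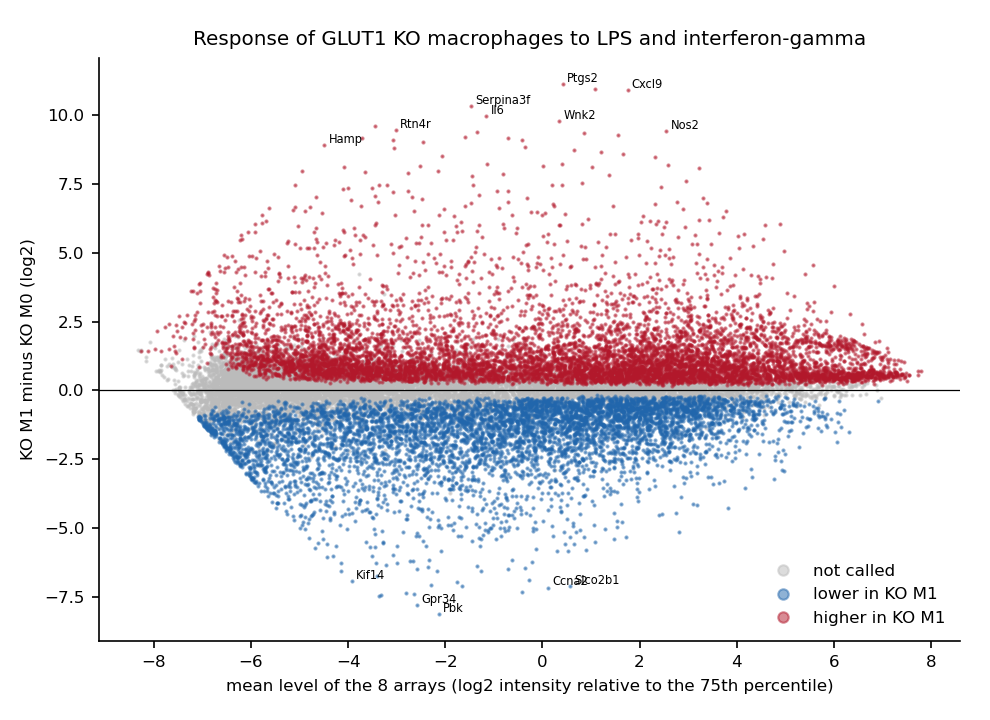
Response of every gene tested (KO M1 minus KO M0, log2, y axis) against its mean level over the 8 arrays (log2 intensity relative to the 75th percentile, x axis). Red points were called higher (8205 genes), blue points lower (6245) and grey points not called; Ptgs2 lies at the top with a response of 11.12 and Pbk at the bottom with -8.13.

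The 15 largest rises were led by Ptgs2, the inducible cyclooxygenase of prostaglandin synthesis. Ptgs2 was at 6.65, 6.08, 5.15 and 6.03 in KO M1, against -2.85, -5.95, -5.79 and -6.00 in KO M0, a response of 11.12 ± 0.96 (adjusted p = 3.83e-09). Its lowest KO M1 array was still far above its highest KO M0 array. Cxcl9, a chemokine that interferon-gamma induces, was at 7.39, 7.23, 7.0 and 7.18 in KO M1, against -4.40, -0.053, -4.89 and -5.43 in KO M0 (10.89 ± 1.28, adjusted p = 3.12e-07). The high KO M0 value is that of set 4. Next came the protease inhibitor genes Serpina3f (10.33 ± 0.66) and Serpina3g (9.35 ± 0.79), the cytokine genes Il6 (9.95 ± 1.1) and Il1a (9.0 ± 0.98), and Nos2, the inducible nitric oxide synthase (9.41 ± 0.46). The interferon-inducible GTPases Gbp4 (9.40), Gbp6 (9.08) and Iigp1 (9.26) and the ubiquitin-like modifier Ubd (9.18) were also among them. Also among them were the kinase gene Wnk2 (9.79), the Nogo receptor gene Rtn4r (9.45) and the intracellular chloride channel gene Clic5 (9.18). In KO M0 the probes of Serpina3f, Il6, Gbp4, Gbp6 and Il1a were well above background on 2 of 4 arrays and those of Rtn4r and Ubd on 1. The GTPases, the Serpina3 genes and other genes of large families have close relatives, to which their probes may also bind.

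Hamp, which encodes the iron hormone hepcidin, completed the 15. It was at -0.41, 0.099, 0.075 and 0.085 in KO M1, against -9.24, -8.91 and -8.69 in KO M0, with 1 KO M0 spot set aside as an outlier. No KO M0 array was well above background, and the rise was at least 6.74 on the log2 scale (adjusted p = 5.06e-06). The 15 were chosen by size among called genes whose groups did not overlap and whose KO M1 arrays were all well above background, so their separation is no finding. Il12b, with a larger response than most of them, lacked 1 KO M1 value and is described with the cytokines.

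The RefSeq promoter table (GRCm38.p6) held the 250 bases before to 50 after the start for 11 of these 15 genes. On both strands, the gamma-activated sequence TTCNNNGAA was found in 3 of 11 (27.3%), against 9.55% of all 27025 genes in the table. A gene was counted if any of its starts held a match. Of the 3 genes, Serpina3f and Serpina3g lie near each other on chromosome 12, and the same bases follow the match in both. These 2 are thus not independent, and so few genes show no excess. The NF-kappaB consensus was also found in 3 of 11 (27.3%, against 9.55% of all), and the core of the interferon-stimulated response element (a pair of GAAA runs 2 bases apart) in 0 of 11 (3.99% of all). The table held promoters for 10 of the 15 largest falls, and each motif was found in 1 of these genes. Matches are letters in a window and not bound sites. The 200 bases before the start of 5 rises are shown because they hold a match, in capitals, for NF-kappaB (Il6, Ubd), the gamma-activated sequence (Hamp, Serpina3f at the first of its starts in the table) or both (Serpina3g). They are Il6 (chr5:30012914-30013113, plus strand), Ubd (chr17:37193692-37193891, plus strand), Serpina3g (chr12:104235947-104236146, plus strand), Serpina3f (chr12:104214344-104214543, plus strand) and Hamp (chr7:30944030-30944229, minus strand).
Il6: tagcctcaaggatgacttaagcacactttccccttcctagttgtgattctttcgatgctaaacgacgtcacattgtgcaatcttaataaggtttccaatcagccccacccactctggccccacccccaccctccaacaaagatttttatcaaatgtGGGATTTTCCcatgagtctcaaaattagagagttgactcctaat
Ubd: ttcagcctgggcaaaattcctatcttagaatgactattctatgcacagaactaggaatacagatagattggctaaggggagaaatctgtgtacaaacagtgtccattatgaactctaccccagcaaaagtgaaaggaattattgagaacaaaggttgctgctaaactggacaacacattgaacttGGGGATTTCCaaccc
Serpina3g: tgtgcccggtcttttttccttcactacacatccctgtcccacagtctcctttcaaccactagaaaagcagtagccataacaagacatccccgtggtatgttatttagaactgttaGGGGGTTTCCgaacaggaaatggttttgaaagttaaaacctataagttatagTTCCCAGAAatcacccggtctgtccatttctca
Serpina3f: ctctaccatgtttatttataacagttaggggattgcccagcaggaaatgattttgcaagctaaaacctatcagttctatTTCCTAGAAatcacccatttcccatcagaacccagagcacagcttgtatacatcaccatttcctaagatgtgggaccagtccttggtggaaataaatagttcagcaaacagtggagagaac
Hamp: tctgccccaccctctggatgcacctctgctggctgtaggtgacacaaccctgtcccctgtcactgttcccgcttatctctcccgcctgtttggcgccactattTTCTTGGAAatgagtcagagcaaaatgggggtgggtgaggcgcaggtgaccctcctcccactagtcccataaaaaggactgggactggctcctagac

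The 15 largest falls were led by a gene of mitosis. Pbk, a mitotic kinase, was at -6.12, -5.89, -5.51 and -7.27 in KO M1, against 2.78, 0.76, 1.98 and 2.25 in KO M0 (-8.13 ± 0.47, adjusted p = 1.14e-11). Ccna2, which encodes cyclin A2, was at -3.51, -3.33, -2.74 and -4.26 in KO M1, against 4.05, 2.70, 3.89 and 4.17 in KO M0 (-7.16 ± 0.38, adjusted p = 4.00e-12). The groups were far apart for both. Pimreg (-7.32), the centromere protein gene Cenpf (-7.12), the spindle gene Aspm (-6.95) and the DNA glycosylase gene Neil3 (-7.38) fell in the same way. For the kinesin genes Kif11 and Kif14, the repressor gene E2f7 and the Ras activator gene Rasgrp3, no KO M1 array was well above background, and the falls were at least 71.4-fold, 28.5-fold, 51.5-fold and 38.7-fold (adjusted p = 1.03e-11, 1.79e-12, 7.19e-11 and 2.25e-08). A dimmer probe of E2f7 gave a log2 difference of 0.41 that did not pass the test. The rest were the lysophosphatidylserine receptor gene Gpr34 (-7.80), the fractalkine receptor gene Cx3cr1 (-6.88), the organic anion transporter gene Slco2b1 (-7.11), Zfyve28 (-7.07) and Kctd12b (-6.57). In KO M1 only 1 of 4 arrays was well above background for Pbk, Gpr34, Neil3 and Cenpf, 2 for Aspm and Zfyve28, and 3 for Cx3cr1 and Kctd12b.

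**Figure D2:**
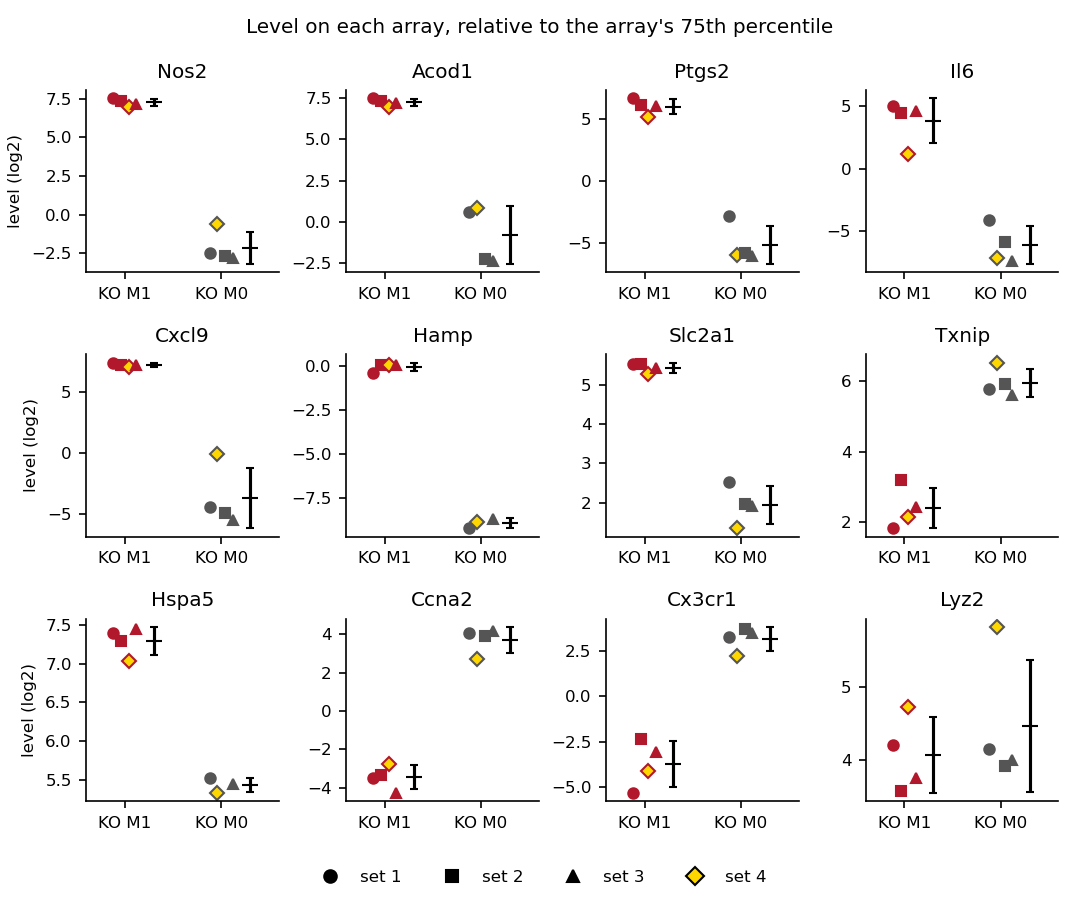
Level of 12 genes on each array (log2 intensity relative to the 75th percentile, y axis), with KO M1 left and KO M0 right in each panel. Symbols give the set, gold diamonds mark set 4, and the bar beside the points is the mean ± SD; the groups are separate in every panel but that of Lyz2.

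Of the 19 receptors and first signalling steps of both stimuli, 14 rose and 4 fell, with a median response of 0.94 against 0.22 for all genes. The largest rise was that of Jak2, the kinase of the interferon-gamma receptor, at 5.04, 4.30, 3.93 and 4.37 in KO M1, against 0.45, 0.74, 0.14 and 0.24 in KO M0 (4.01 ± 0.27, adjusted p = 8.95e-11). Stat2 (3.13) and the Toll-like receptor 4 adaptor gene Ticam2 (2.69) rose, whereas Ifngr1, the ligand-binding chain of the interferon-gamma receptor (-2.29), and the kinase gene Irak4 (-2.25) fell. Tlr4 itself gave 0.52 ± 0.14 with its brightest of 3 probes and -1.81 ± 0.12 and -0.81 ± 0.26 with the others, so that its probes disagree in direction.

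Among 23 subunits and feedback inhibitors of NF-kappaB and of cytokine signalling, 19 rose and the other 4 were not called (median 1.11). Without set 4, 20 rose and 1 fell, and after quantile normalization 13 rose and 2 fell. Socs1, the inhibitor of Jak kinases, was at 5.12, 5.05, 4.29 and 4.78 in KO M1, against -2.03, -0.91, -2.32 and -2.33 in KO M0 (6.70 ± 0.26, adjusted p = 7.35e-14), and Socs3, the inhibitor of interleukin-6 signalling, rose by 4.85 ± 0.36. The NF-kappaB inhibitors Nfkbib (3.65 ± 0.13) and Tnfaip3 (3.07 ± 0.21) followed. Of the subunits, Rela gave 0.55 ± 0.10, which turned to -0.12 after quantile normalization, and Rel was not called (-0.24). Of 10 interferon regulatory factors and partners, 7 rose and 2 fell. Irf1, which interferon-gamma induces, was at 7.52, 7.22, 6.99 and 7.12 in KO M1, against 4.00, 4.35 and 3.62 in KO M0, with 1 KO M0 spot set aside (3.23 ± 0.25, adjusted p = 2.49e-09). Irf7, which drives type I interferon genes (3.78 ± 0.92), and Batf2 (3.88 ± 0.25) rose, and Irf4, which is tied to alternative activation, fell (-3.53 ± 0.23, 1 of 4 KO M1 arrays well above background).

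Interferon-response genes rose throughout. All 16 interferon-inducible GTPases tested rose, by 2.53 to 9.40 with a median of 5.28, and so did all 29 antiviral interferon-stimulated genes tested (median 3.89), each without overlap between the groups. These GTPases attack the vacuoles in which microbes live. Gbp2 was at 7.80, 7.66, 7.34 and 7.55 in KO M1, against 1.99, 2.86, 0.75 and 0.67 in KO M0 (6.02 ± 0.49, adjusted p = 1.52e-09), and Irgm1 at 6.80, 6.72, 6.47 and 6.64 in KO M1, against 2.53, 3.21, 2.23 and 2.21 in KO M0 (4.11 ± 0.24, adjusted p = 1.08e-11). In the antiviral list, Rsad2, which encodes viperin, was at 7.26, 7.0, 6.03 and 6.97 in KO M1, against -0.10, 1.76, -1.08 and -1.34 in KO M0 (7.0 ± 0.64, adjusted p = 8.23e-09). Mx1, a GTPase that blocks influenza viruses, was at 5.62, 5.76, 4.88 and 5.60 in KO M1, against -0.90, 1.73, -1.84 and -1.76 in KO M0 (6.16 ± 0.67, adjusted p = 9.76e-08). Ifit2 (6.76) and Isg15, a ubiquitin-like protein (5.05), rose as well. KO M0 replicate 2, of set 4, was the highest unstimulated array for Gbp2, Irgm1, Rsad2, Mx1, Ifit2 and Isg15. The median response of the antiviral list was 4.23, 4.31 and 4.80 in sets 1 to 3 and 2.13 in set 4, and without set 4 it was 4.46, with 29 of 29 still higher.

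Of 26 listed cytokines, 23 could be tested and 22 rose (median 3.62, or 2.94 with genes that were below background in 1 group at their bound). Il6, the pyrogenic cytokine, was at 5.04, 4.47, 1.14 and 4.63 in KO M1, against -4.09, -7.19, -5.86 and -7.37 in KO M0 (9.95 ± 1.1, adjusted p = 1.38e-07), and its low KO M1 value came from set 4. Il12b, the subunit shared by interleukins 12 and 23, was at 5.94, 6.83 and 6.89 in KO M1, against -4.19, -4.65, -3.75 and -5.04 in KO M0 with 1 KO M1 spot set aside (10.96 ± 0.48, adjusted p = 1.58e-12). Both groups were well apart for each. Il1b was at 4.75, 6.14, 2.06 and 5.26 in KO M1, against -1.11, 0.85, -0.78 and -2.66 in KO M0 (5.48 ± 1.01, adjusted p = 1.1e-04), and without set 4 its response was 6.90. Inhba, the subunit of activin A, rose by 8.60 ± 0.73, the interleukin-1 receptor antagonist gene Il1rn by 6.31 ± 0.43 and Tnf by 2.94 ± 0.52. Ifnb1, which encodes interferon-beta, was not well above background in KO M0 and rose at least 39.0-fold (adjusted p = 4.14e-10). Il10, the anti-inflammatory cytokine, was the member not called, at -1.79, -1.61, -2.76 and -1.86 in KO M1, against -1.80, -2.99, -1.22 and -2.07 in KO M0 (0.014 ± 0.49, adjusted p = 0.983).

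Chemokines were more mixed, with 12 of 22 higher and 2 lower (median 2.52). Cxcl9 rose most, as described, and Cxcl10, which binds the same T cell receptor Cxcr3, was at 6.74, 6.73, 5.08 and 6.28 in KO M1, against 0.75, -0.087, -1.70 and -1.55 in KO M0 (6.85 ± 0.53, adjusted p = 7.34e-10). The monocyte attractants Ccl8 (6.99 ± 1.13) and Ccl12 (6.40 ± 0.33) rose, and Ccl22, not well above background in KO M0, rose at least 14.5-fold (adjusted p = 5.19e-07). Cxcl14 (-1.88 ± 0.43) and Ccl6 (-0.95 ± 0.34) fell, and Ccl6 was not called when 1 of 4 arrays was left out in turn, KO M1 replicates 1, 2 or 4 or KO M0 replicate 2 (-0.88, -0.87, -0.83 and -0.75). The neutrophil attractant Cxcl1 was not called (0.96 ± 1.19), nor was Ccl3 (0.62 ± 0.77). The receptors that read chemoattractants changed in both directions, 6 of 18 higher and 9 lower. Ccr7, which guides cells to lymph nodes (7.09 ± 0.79), the adenosine receptor gene Adora2a (5.97 ± 0.42) and the formyl peptide receptor gene Fpr2 (4.61 ± 0.45) rose. Cx3cr1 was at -5.31, -2.37, -4.11 and -3.08 in KO M1, against 3.27, 2.2, 3.69 and 3.49 in KO M0 (-6.88 ± 0.73, adjusted p = 7.42e-08), and P2ry12, a receptor for ADP (-4.31 ± 0.38, 2 of 4 KO M1 arrays well above background) and the C5a receptor gene C5ar1 (-2.54 ± 0.17) fell too.

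Antigen presentation genes rose nearly without exception. All 14 tested genes of class I loading and the immunoproteasome rose (median 2.15), among them the peptide transporter gene Tap1 (3.34 ± 0.17), the immunoproteasome subunit gene Psmb9 (2.48 ± 0.12) and Nlrc5, the transactivator of class I genes (3.81 ± 0.21). Of 11 class II genes, 10 rose and 1 fell (median 2.51). Ciita, the master regulator of class II, was at 4.50, 4.39, 3.94 and 4.08 in KO M1, against 0.82, 1.45, 0.093 and -0.35 in KO M0 (3.73 ± 0.36, adjusted p = 1.95e-08), and H2-Aa, a class II chain, at 4.66, 5.03, 4.34 and 4.98 in KO M1, against 1.17, 2.13, 0.92 and 0.65 in KO M0 (3.53 ± 0.44, adjusted p = 6.45e-07). Every KO M1 array was above every KO M0 array for both. The invariant chain gene Cd74 rose by 2.51 ± 0.40. The fall was that of H2-DMb2 (-0.94 ± 0.28), which was not well above background on any KO M1 array and on 3 KO M0 arrays. Of 14 ligands that steer T cells, 9 rose and 4 fell. Cd40, which receives help from T cells (6.32 ± 0.23), Slamf1 (6.37 ± 0.48) and Cd274, which encodes the checkpoint ligand PD-L1 (5.50 ± 0.23), rose. Cd80, a co-stimulatory ligand, was at -0.32, 0.0088, -1.04 and -0.16 in KO M1, against 2.97, 3.19, 2.97 and 2.95 in KO M0 and fell (-3.40 ± 0.16, adjusted p = 9.22e-13).

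Of 17 genes of arginine, nitric oxide and reactive oxygen metabolism 13 rose and 3 fell (median 1.70). Nos2, the synthase itself, was at 7.52, 7.38, 6.94 and 7.18 in KO M1, against -2.50, -0.62, -2.69 and -2.82 in KO M0 (9.41 ± 0.46, adjusted p = 1.37e-12), and the KO M0 array of set 4 was its highest unstimulated value. Slc7a2, the arginine importer that feeds it, was at 4.70, 4.59, 4.26 and 4.52 in KO M1, against -3.62, -3.05, -4.30 and -3.87 in KO M0 (8.23 ± 0.39, adjusted p = 8.35e-13). Ass1, which recycles citrulline to arginine (4.55 ± 0.30), and Gch1, the first enzyme of the cofactor tetrahydrobiopterin (2.13 ± 0.16), rose, the next cofactor enzyme Pts fell (-1.33 ± 0.19), and Asl, the second recycling enzyme, was not called (0.17) but was without set 4 (0.25). The arginases, which compete for the same substrate, rose as well, Arg2 by 3.37 ± 0.78 and Arg1 by 1.70 ± 0.38, and the Arg1 arrays of the groups overlapped at -0.21, 0.84, 1.16 and 0.14 in KO M1, against -2.02, 0.37, -1.15 and -2.06 in KO M0.

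Acod1, which makes itaconate from a Krebs cycle intermediate, was at 7.50, 7.34, 7.0 and 7.24 in KO M1, against 0.60, 0.84, -2.24 and -2.41 in KO M0 (8.07 ± 0.70, adjusted p = 4.25e-09). The list of the cycle and its side arms, which holds Acod1, went both ways. Of 29 genes 10 rose and 12 fell (median -0.0003), and after quantile normalization 5 rose and 17 fell. The cytosolic isocitrate dehydrogenase Idh1 was at -2.12, -1.86, -1.77 and -1.84 in KO M1, against 0.88, 1.25, 1.15 and 1.05 in KO M0 (-2.98 ± 0.20, adjusted p = 1.29e-10), and Suclg2, a succinyl-CoA ligase subunit, also fell (-3.12 ± 0.24). In prostaglandin and leukotriene synthesis, 7 of 16 rose and 9 fell. Pla2g4a, which frees arachidonic acid, rose with Ptgs2 (3.20 ± 0.44). The constitutive cyclooxygenase Ptgs1 was at -1.63, -1.87, -1.23 and -2.64 in KO M1, against 3.56, 2.90, 2.96 and 3.00 in KO M0 (-4.95 ± 0.27, adjusted p = 7.41e-12), and Hpgd, which breaks prostaglandins down (-5.40 ± 0.76), and the 5-lipoxygenase gene Alox5 (-3.33 ± 0.43) fell.

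**Figure D3:**
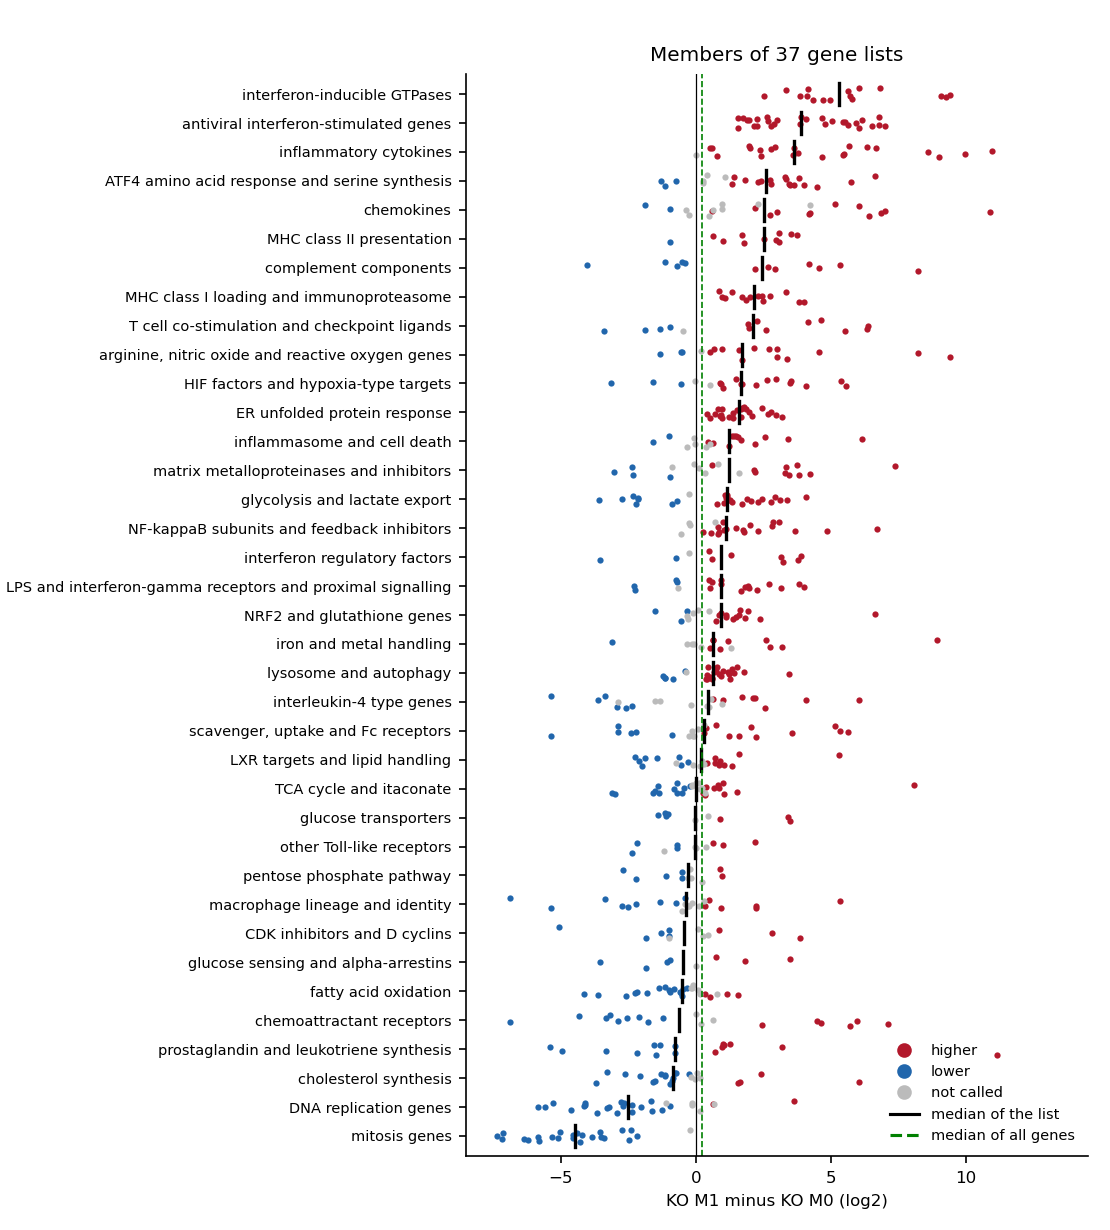
Response of the members of 37 gene lists (KO M1 minus KO M0, log2, x axis), ordered by the median of the list, with the highest at the top. Points are genes, red if called higher, blue if called lower and grey if not called; black bars are list medians and the dashed green line is the median of all genes. Interferon-inducible GTPases have the highest median (5.28) and mitosis genes the lowest (-4.46).

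Of 9 glucose transporter genes tested, 3 rose, 4 fell and 2 were not called, where 32% of all genes rose and 24.4% fell. Besides Slc2a1, Slc2a6, a transporter known from activated macrophages, was at 6.01, 5.65, 5.88 and 5.60 in KO M1, against 3.18, 1.91, 1.97 and 2.41 in KO M0 (3.42 ± 0.24, adjusted p = 1.44e-10). The high-affinity transporter gene Slc2a3 was at -1.96, -0.84, -0.54 and -1.58 in KO M1, against -0.31, -0.26, 0.22 and 0.053 in KO M0 and fell (-1.16 ± 0.31, adjusted p = 0.00345), as did Slc2a8 (-1.42 ± 0.14). In glycolysis and lactate export, 19 of 28 genes rose and 8 fell (median 1.15, and 0.45 after quantile normalization). Hk2, the hexokinase that traps glucose in the cell, was at 5.12, 5.15, 5.73 and 5.08 in KO M1, against 0.80, 1.76, 1.33 and 0.94 in KO M0 (4.06 ± 0.21, adjusted p = 2.35e-12). Pfkl, the liver-type phosphofructokinase (3.36 ± 0.22), and Pfkfb3, which makes its activator (3.09 ± 0.28), rose. The lactate transporter genes Slc16a3 (2.45 ± 0.27) and Slc16a1 (2.77 ± 0.17), the enolase gene Eno2 (2.92 ± 0.21) and the lactate dehydrogenase gene Ldha (1.13 ± 0.10) rose too. The isoforms Pfkfb1 (-3.58 ± 0.56) and Aldoc (-2.2 ± 0.38) and the pyruvate dehydrogenase kinase gene Pdk2 (-2.74 ± 0.24) fell. For Pfkfb1, KO M0 replicate 3 was at 2.87 and the next highest KO M0 array at -0.66, so the size of its fall rests partly on 1 array.

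Txnip, a thioredoxin-binding alpha-arrestin that limits glucose uptake and whose gene is turned on by glucose metabolites, was at 1.85, 3.19, 2.15 and 2.44 in KO M1, against 5.75, 6.51, 5.91 and 5.60 in KO M0. It fell by 3.54 on the log2 scale (limma adjusted p = 1.44e-09), and the groups were separate. Its relative Arrdc4, which answers to the same glucose-sensing factors, went the other way, at 3.75, 3.65, 3.35 and 3.45 in KO M1, against -0.059, 0.85, -0.073 and -0.50 in KO M0 (3.50 ± 0.29, adjusted p = 1.75e-09), and Arrdc3 fell (-1.85 ± 0.35). In the pentose phosphate pathway 2 of 11 genes rose and 5 fell (median -0.29). Its first enzyme, G6pdx, was at 4.33, 4.68, 3.99 and 4.41 in KO M1, against 4.80, 5.05, 4.91 and 4.78 in KO M0 (-0.53 ± 0.13, adjusted p = 0.00143). Shpk, a sedoheptulose kinase that restrains the pathway in macrophages (-2.22 ± 0.19), and Prps2, which makes the nucleotide precursor phosphoribosyl pyrophosphate (-2.71 ± 0.30), fell.

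Genes that burn fatty acids were mostly lower, with 16 of 26 down and 4 up (median -0.53). The medium-chain dehydrogenase gene Acadm was at 1.35, 1.61, 1.62 and 1.43 in KO M1, against 3.76, 3.60, 3.69 and 3.72 in KO M0 (-2.19 ± 0.084, adjusted p = 7.35e-14), with hardly any spread within a group. Pparg, the nuclear receptor that drives lipid genes (-3.64 ± 0.39), and the thiolase gene Acaa2 (-2.60 ± 0.16, 3 KO M0 arrays) fell, and Ehhadh, not well above background in KO M1, fell at least 7.44-fold (adjusted p = 7.23e-11). In cholesterol synthesis, 15 of 23 fell and 4 rose. The isomerase gene Idi1 (-3.30 ± 0.19) fell, and the sterol sensor gene Insig1 (1.63 ± 0.26), Mvd (2.42 ± 0.19) and Ch25h, the enzyme that makes the antiviral 25-hydroxycholesterol (6.03 ± 0.94), rose. Of 22 genes of lipid handling 9 rose and 8 fell, and after quantile normalization 4 rose and 10 fell. The lipid droplet gene Hilpda rose most, at 6.65, 6.14, 5.54 and 6.20 in KO M1, against 1.07, 0.30, 0.99 and 0.94 in KO M0 (5.31 ± 0.42, adjusted p = 1.16e-09), and the desaturase and elongase genes Fads1 (-2.27 ± 0.20) and Elovl6 (-2.11 ± 0.26) fell.

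The unfolded protein response of the endoplasmic reticulum rose as a whole. All 24 genes listed were called higher without overlap between the groups, with a median of 1.58 and a range of 0.42 to 3.19, and 21 were called higher after quantile normalization. Hspa5, the chaperone BiP, was at 7.40, 7.28, 7.04 and 7.44 in KO M1, against 5.52, 5.34 and 5.45 in KO M0, with 1 KO M0 spot set aside (1.85 ± 0.14, adjusted p = 8.73e-10). Hyou1, another chaperone of this compartment, was at -0.43, -0.95, -1.37 and -0.64 in KO M1, against -4.01, -4.50, -3.88 and -3.76 in KO M0 (3.19 ± 0.23, adjusted p = 3.02e-10). The co-chaperone gene Dnajb9, a target of the factor Xbp1, rose by 2.46 ± 0.14 and Herpud1 by 0.98 ± 0.19.

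Targets of Atf4, the factor of amino acid shortage and other stress, rose in 17 of 24 cases and fell in 3 (median 2.58). Slc7a11, the cystine importer, rose most, at 3.19, 2.11, 1.68 and 2.65 in KO M1, against -3.59, -4.11, -4.54 and -4.59 in KO M0 (6.61 ± 0.52, adjusted p = 8.48e-10). The stress factor gene Ddit3, known as Chop, was at 5.23, 4.65, 4.99 and 4.79 in KO M1, against 0.19, 1.07, 1.24 and 1.16 in KO M0 (4.00 ± 0.35, adjusted p = 3.70e-09). The asparagine synthetase gene Asns (3.30 ± 0.61) and the glutathione-degrading enzyme gene Chac1 (3.47 ± 0.69) rose, and the serine synthesis gene Phgdh was not called (0.40 ± 0.51). Of 19 factors and targets of the hypoxia pathway 14 rose and 3 fell (median 1.67). Hif1a, the factor itself, was at 6.10, 6.40, 6.15 and 6.16 in KO M1, against 2.57, 3.37, 2.56 and 2.35 in KO M0 (3.49 ± 0.23, adjusted p = 9.60e-11), and the growth factor gene Vegfa at 5.61, 5.69, 5.39 and 5.63 in KO M1, against 0.37, -0.37, 0.13 and -0.044 in KO M0 (5.56 ± 0.42, adjusted p = 5.52e-10). Adm (5.36 ± 0.43) and Bhlhe40 (3.52 ± 0.39) rose and Epas1, the second hypoxia factor, fell (-3.16 ± 0.30). In the antioxidant list of Nrf2, 13 of 21 rose and 3 fell, among them Srxn1 (1.94 ± 0.21) and Gpx1, the main glutathione peroxidase (-1.50 ± 0.17).

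Proliferation genes fell together. Of 24 mitosis genes 23 fell, with a median of -4.46, and these 23 were without overlap between the groups. Top2a, the topoisomerase of dividing cells, was at -0.91, -1.63, -0.71 and -1.63 in KO M1, against 4.30, 3.03, 3.76 and 4.14 in KO M0 (-5.03 ± 0.34, adjusted p = 9.78e-11). The mitotic cyclin gene Ccnb1 (-4.23 ± 0.40), its kinase gene Cdk1 (-3.50 ± 0.33) and the proliferation marker Mki67 (-2.42 ± 0.30) fell, and the spindle factor gene Tpx2 was not called (-0.21) but was without set 4 (-0.54). Of 28 DNA replication genes 21 fell and 2 rose (median -2.51). Rrm2, which makes deoxyribonucleotides, fell most (-5.85 ± 0.49), Mcm2 of the replicative helicase was not called (-0.13), and Ccne1, the cyclin of the start of S phase, rose, at 5.07, 4.77, 3.86 and 4.76 in KO M1, against 2.22, 0.049, 0.55 and 1.13 in KO M0 (3.63 ± 0.50, adjusted p = 3.02e-06). Of the regulators of G1 phase, the D cyclin gene Ccnd2 (3.86 ± 0.61) and the inhibitor gene Cdkn1c (2.80 ± 0.46) rose and the inhibitor gene Cdkn2c fell (-5.08 ± 0.33). In KO M0 replicate 2, of set 4, the levels of Ccna2, Top2a, Ccnb1, Cdk1, Mki67 and Rrm2 were the lowest of the group. The median of the mitosis list was -3.25 in set 4 and -4.75 to -5.04 in the other sets.

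Of 22 genes of macrophage lineage and identity 6 rose and 9 fell, against 32% and 24.4% of all genes. After quantile normalization 3 rose and 13 fell. Csf1r, the M-CSF receptor (0.12), and the transcription factor gene Spi1 (-0.14) were not called, though Csf1r was called lower after quantile normalization (-0.62) and with the mean of its probes (-0.43), whereas Fcgr1, the high-affinity antibody receptor induced by interferon-gamma, rose (2.23 ± 0.41). Adgre1, which encodes F4/80, gave 0.49 ± 0.11 and Cd68 0.32 ± 0.10, and both changed sign after quantile normalization (-0.26 and -0.36), and Cd68 was not called without KO M1 replicate 1 (0.25). The lineage factor gene Maf (-2.23 ± 0.33) fell. So did the mannose receptor gene Mrc1, a marker of alternative activation, at 2.12, 1.69, 2.66 and 1.4 in KO M1, against 4.96, 5.65, 5.32 and 5.35 in KO M0 (-3.35 ± 0.44, adjusted p = 1.23e-06), and Clec10a (-5.36 ± 0.59). The haemoglobin receptor gene Cd163 was not well above background in KO M1 and fell at least 9.14-fold (adjusted p = 3.67e-09). The scavenger receptor gene Marco rose, at 6.79, 4.97, 6.78 and 4.81 in KO M1, against 1.59, 3.76, -1.71 and -1.61 in KO M0 (5.33 ± 1.22, adjusted p = 8.41e-04), and its highest KO M0 value was that of set 4. Retnla, typical of interleukin-4, was at -3.59, -1.31, 2.69 and -2.48 in KO M1, against -0.17, 4.11, 2.29 and 0.61 in KO M0 and was not called (-2.88 ± 1.41), although it was without KO M1 replicate 3 (-4.17). Of 22 genes typical of interleukin-4, 8 rose and 6 fell, close to the shares of all genes (32% and 24.4%).

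Complement genes split, 7 of 12 higher and 5 lower. Cfb, the protease of the alternative pathway, was at 6.72, 6.78, 6.65 and 6.56 in KO M1, against -0.97, 2.50, -3.67 and -3.94 in KO M0 (8.20 ± 1.3, adjusted p = 1.65e-05), and C3, the central component, rose by 4.55 ± 0.52. The recognition gene C1qa (-1.13 ± 0.32) fell. In KO M0 the 2 highest Cfb values were those of replicate 2, of set 4, and replicate 1. Among receptors for uptake, 11 of 23 rose and 6 fell, but 7 rose and 10 fell after quantile normalization. Olr1 rose most (5.64 ± 0.57, 3 of 4 KO M0 arrays well above background), and the lipoprotein receptor gene Scarb1 (-2.89 ± 0.21) and Gas6, the bridge to dying cells (-2.87 ± 0.28), fell. Of 28 lysosome and autophagy genes 22 rose and 5 fell (median 0.63), but after quantile normalization 11 rose and 9 fell (median -0.031). The autophagy receptor gene Optn (3.45 ± 0.19) rose most. Of 20 matrix metalloproteinases and their inhibitors 10 rose and 4 fell. The membrane-bound protease gene Mmp25 (7.36 ± 0.39, 1 of 4 KO M0 arrays well above background) and the collagenase gene Mmp13 (4.23 ± 0.94) rose and the inhibitor gene Timp2 fell (-2.31 ± 0.30). Of 15 iron and metal genes 9 rose, Hamp most, and 1 fell. That was the iron exporter gene Slc40a1, which hepcidin controls at the protein level, at 1.75, 1.41, 1.3 and 1.57 in KO M1, against 3.90, 5.12, 4.74 and 4.67 in KO M0 (-3.1 ± 0.43, adjusted p = 2.78e-06).

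Whether KO cells responded otherwise than WT cells was tested as the difference of the responses, KO minus WT. It was called in 7814 of 25644 genes (30.5%), 3924 with a higher value in KO (15.3%) and 3890 with a lower one (15.2%). Counts of differences in the lists are to be set against these shares. In WT cells 6415 genes rose (25%) and 5900 fell (23%). Without set 4 the counts of the difference were 5023 and 4229, and after quantile normalization 3313 and 4578.

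The interferon-inducible GTPases and antiviral genes rose in both genotypes, 16 of 16 and 29 of 29 in each, and the difference was called in 1 of each list, lower in KO. Nos2 rose by 9.41 ± 0.46 in KO and 10.14 ± 0.46 in WT (difference -0.73 ± 0.65, adjusted p = 0.460), and Acod1 by 8.07 ± 0.70 in KO and 8.85 ± 0.70 in WT (difference -0.78 ± 0.99, adjusted p = 0.629). The 95% intervals of these differences ran from -2.09 to 0.63 for Nos2 and from -2.85 to 1.3 for Acod1. Of the cytokines, Inhba (4.34 ± 1.03) and Il12b (2.96 ± 0.65) rose more in KO. Il10 rose in WT (1.89 ± 0.49) and was not called in KO, a difference of -1.88 ± 0.69 (adjusted p = 0.0439, and 0.0532 to 0.0988 when 1 of 6 of the 8 KO arrays was left out). Arg1 rose less in KO (1.70 ± 0.38) than in WT (5.20 ± 0.38), by -3.50 ± 0.53 (adjusted p = 2.98e-05), and Socs1 also rose less (-1.53 ± 0.36).

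In the endoplasmic reticulum list the difference was called for nearly all members, with 21 of 24 genes higher in KO, the other 3 not called and a median difference of 1.35, against 0.12 for all genes. In WT its median response was 0.23, with 9 genes higher and 5 lower. Hspa5 rose by 1.85 ± 0.14 in KO and 0.47 ± 0.13 in WT (difference 1.39 ± 0.19, adjusted p = 1.14e-05). Herpud1 rose in KO and fell in WT (0.98 and -2.09, difference 3.07 ± 0.27), as did Derl3, a part of the machinery that removes misfolded proteins (2.95 and -3.20, difference 6.15 ± 0.38). Dnajb9 was called in KO and not in WT (2.46 and -0.021), and the difference of 2.48 ± 0.19 was called (adjusted p = 1.48e-08). Of the Atf4 list 14 of 24 were higher in KO and 1 lower, among them Asns (3.05 ± 0.87), Chac1 (2.93 ± 0.97), Ddit3 (2.48 ± 0.49) and Phgdh (3.05 ± 0.72), which fell in WT (-2.66). The difference for Chac1 was not called without KO M1 replicate 4 (2.74) or KO M0 replicate 2 (2.33). After quantile normalization 17 of the endoplasmic reticulum genes were higher in KO and 1 lower, and 13 of the Atf4 list higher and 1 lower.

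**Figure D4:**
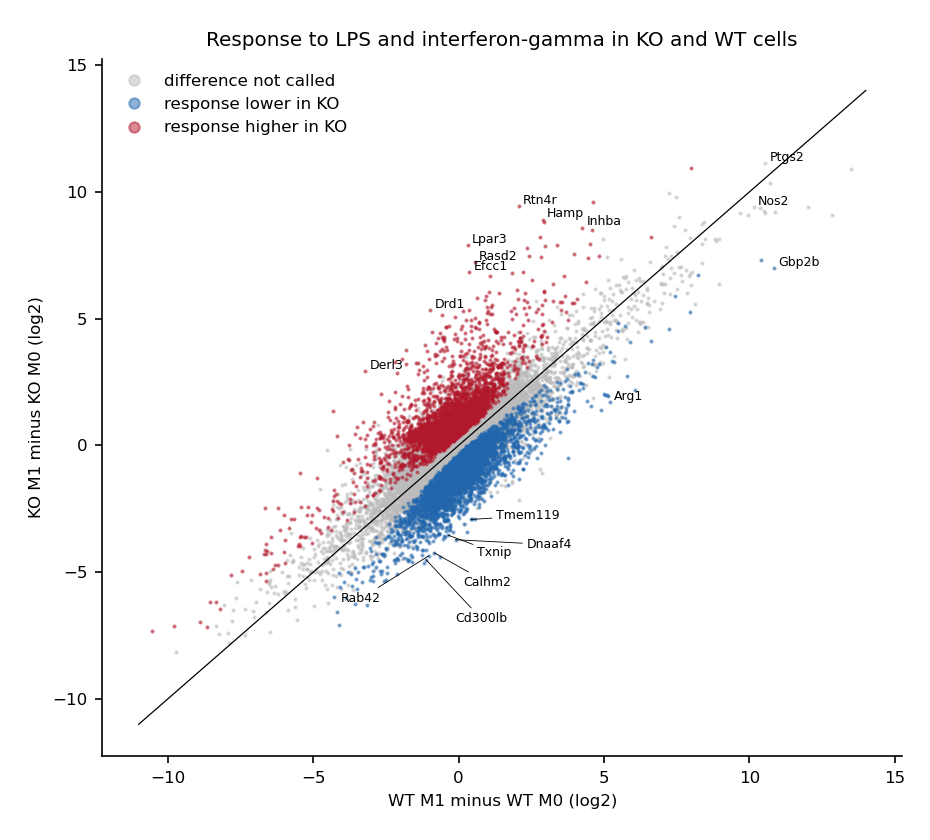
Response of each gene in KO cells (KO M1 minus KO M0, log2, y axis) against that in WT cells (WT M1 minus WT M0, log2, x axis), with the line of equal response. Red points were called higher in KO (3924 genes) and blue points lower (3890); Ptgs2 and Nos2 lie near the line, Rasd2 and Derl3 above it and Txnip below it.

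Glucose-related genes differed in both directions. Txnip fell in KO (-3.54 ± 0.29) and was not called in WT (-0.36 ± 0.29), a difference of -3.17 ± 0.40 (adjusted p = 4.05e-06), and its level was 2.41 ± 0.58 in KO M1, 5.94 ± 0.40 in KO M0, against 5.95 ± 0.16 in WT M1 and 6.32 ± 0.32 in WT M0 (mean ± SD, n = 4 each). Arrdc4 rose more in KO (2.77 ± 0.40) and Arrdc3 differed the other way (-2.17 ± 0.50). Hk2 rose by 4.06 in KO and 2.14 in WT (difference 1.93 ± 0.29, adjusted p = 3.13e-05). Slc16a1 (2.66 ± 0.23) and Eno2 (3.16 ± 0.30) also differed upwards, and Pfkfb1 (-3.07 ± 0.79), Aldoc (-1.99 ± 0.54) and Pdk2 (-1.68 ± 0.33) downwards. The size for Pfkfb1 rests partly on the high KO M0 replicate 3. Of the 28 genes of glycolysis and lactate export 6 were higher in KO and 7 lower, against 15.3% and 15.2% of all genes. After quantile normalization 3 were higher and 7 lower. G6pdx fell in KO and rose in WT (-0.53 and 0.95, difference -1.48 ± 0.18). The difference for the transporter gene Slc2a6 was 0.065 ± 0.33, with a 95% interval of -0.63 to 0.76, and was not called. Of the fatty acid oxidation genes 12 of 26 were lower in KO and 3 higher, among them Acadm (-1.26 ± 0.12) and Acaa2 (-1.75 ± 0.22). The hypoxia targets Vegfa (2.70 ± 0.59) and Bhlhe40 (3.06 ± 0.55) and the factor gene Hif1a (1.31 ± 0.33) rose more in KO, but Hif1a was not called after quantile normalization (0.83) or with the mean of its probes (1.03). Of the 19 genes of the hypoxia list 8 were higher in KO and 1 lower, and after quantile normalization 5 were higher and 2 lower.

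Part of the cell division genes fell less in KO cells. Of 24 mitosis genes the difference was called in 10, each higher in KO, with a median over the list of 1.01. The response of Mki67 was -2.42 ± 0.30 in KO and -5.18 ± 0.30 in WT, a difference of 2.76 ± 0.43 (adjusted p = 3.55e-05). Of these 10, 1 had no WT M1 array well above background. Over all cell division genes named, no WT M1 array measured Pimreg, Cenpf or Aspm well above background, so the size of their differences was not measured. Those of Cenpf (0.98) and Aspm (0.86) were not called after normexp correction. Without set 4 the difference was called in 15 higher and 2 lower, and after quantile normalization in 9 higher and 1 lower. The lysosome list had 14 of 28 genes higher in KO and 2 lower, with Atp6v0d2, a subunit of the proton pump, higher by 4.14 ± 0.33 and Optn by 3.95 ± 0.27, and after quantile normalization 9 were higher and 3 lower. The chemoattractant receptors leaned the other way, with 7 of 18 lower in KO and 2 higher. C5ar1 (-2.02 ± 0.24) and Adora3 (-3.09 ± 0.56) were among those lower. Of 11 Toll-like receptors other than Tlr4, 6 were lower and 1 higher. Over all genes 15.2% were lower and 15.3% higher.

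The 6 genes with the largest fitted differences upwards were Lpar3, Rtn4r, Rasd2, Efcc1, Drd1 and Derl3. Of these, the small GTPase gene Rasd2 (6.66 ± 0.55) and Derl3 (6.15) were well above background on all 16 arrays. Lpar3 encodes a receptor for lysophosphatidic acid. Its level was -0.75, 0.74, 0.87 and 0.39 in KO M1, against -7.74, -8.19, -8.11 and -6.37 in KO M0, and it rose in KO (adjusted p = 1.33e-12). No WT M1 or WT M0 array was well above background for Lpar3, so its WT response was not measured. Fitted differences were 7.38 for Rtn4r, 6.47 for Efcc1 and 6.30 for the dopamine receptor gene Drd1, but their sizes rest on dim values. In KO M0 the probes of Lpar3, Rtn4r and Drd1 were well above background on 1 of 4 arrays and that of Efcc1 on 2. In WT M1 they were so on 3 of 4 arrays for Rtn4r, 1 for Efcc1 and none for Drd1, and in WT M0 on 1 of 4 for each of these. The 6 with the largest fitted differences downwards, by size among genes called in both tests, were Gbp2b (-3.83), which rose in both genotypes, had no WT M0 array well above background and was not called in the difference without KO M1 replicate 1 (-3.31) or KO M0 replicate 2 (-2.92), and Dnaaf4 (-3.62), Calhm2 (-3.40 ± 0.31), Cd300lb (-3.38 ± 0.26), Tmem119 (-3.35 ± 0.65) and Rab42 (-3.33 ± 0.34), which fell in KO. Cd300lb, an activating immune receptor gene, was at -1.60, -1.33, -1.22 and -1.82 in KO M1, against 3.25, 2.79, 3.09 and 2.93 in KO M0, and it fell by 4.50 in KO and by 1.12 in WT on the log2 scale (adjusted p = 1.21e-08 for the difference). No KO M1 array was well above background for Dnaaf4, whose fall in KO was at least 3.05-fold and whose difference has no measured size, and only 1 of 4 for Rab42, and in KO M0 only 1 of 4 was for Gbp2b.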

How the data were processed

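RNA of bone marrow-derived macrophages was hybridised to 24 one-colour Agilent arrays, 4 for each of 6 groups. Per the file headers, the deposited scanner files came from Feature Extraction 10.7.3.1 (9.1 in the submitters' processing notes) and give the background-subtracted intensity of each spot. Of 62976 spots, 3671 controls and outlier spots were left out. The log2 intensity was scaled per array to the 75th percentile over the deposited gene spots, and spots of a probe were averaged. Probes well above background on at least 4 of 24 arrays (38856) were kept, and the brightest stood for its gene (25644 genes). Accessions, symbols or unique synonyms in the RefSeq gene list named 43738 of 56605 probes (77.3%), and the others kept the names of the array files.

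The limma fit (version 3.58.1, R 4.3.3) had 6 group means on 24 arrays, so that the other groups added to the estimate of the spread (18 residual degrees of freedom), with Benjamini-Hochberg adjustment and a threshold of 0.05. The fit was also run on simulated arrays with known changes in KO M1, where most of the larger changes were called. The simulated noise was independent between arrays, without sets or slides. The run therefore does not show how the fit handles deviations that arrays of a set share. Named genes were Slc2a1, Lyz2, the 15 largest rises and falls, the 6 largest genotype differences in each direction, and leading, regulatory or uncalled members of 37 lists. Members, lists and rule were chosen with earlier results of these data known. Where no array of the dimmer group had a probe well above background, its fold is a bound against the lowest signal well above background on those arrays.

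Replicate numbers did not pair the samples, since deviations from the group means correlated at 0.32, -0.32, -0.21 and 0.32 between same-numbered arrays. Within the 4 sets they correlated at 0.32, 0.28, 0.32 and 0.60. Alternatives were quantile and median scaling, normexp background correction, and other filters and probe rules. Other fits used only the arrays compared, 8 for the response and 16 for the genotype difference. Further fits had blocks for slide, set and replicate number, or left out each KO array or set 4. Results on a few genes are not reported here.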

Additional observations from a re-analysis of the deposited data

Results flagged for a closer look

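In 44 of 408 pairs of a named gene and a group (10.8%), 1 array lay far from the other 3, where chance gives about 1 in 20 pairs. Levels are log2 intensities relative to the 75th percentile. KO M1 replicate 1 lay above the others of its group for Casp4 (5.24). KO M1 replicate 1 lay below the others of its group for Efcc1 (-0.81) and Hamp (-0.41). KO M1 replicate 3, of set 4, lay above the others of its group for Atp6v0d2 (5.72), Bhlhe40 (3.51), Ccl6 (6.08), Clec10a (-1.95), Epas1 (0.12), Hk2 (5.73) and Scarb1 (-0.20). KO M1 replicate 3, of set 4, lay below the others of its group for C3 (7.52), Ccl3 (2.57), Ifit2 (5.25), Il6 (1.14), Mmp13 (3.55) and Serpina3f (3.13). KO M1 replicate 4 lay below the others of its group for Tmem119 (-5.13). KO M0 replicate 1 lay above the others of its group for Fads1 (1.85), Prps2 (3.04), Ptgs1 (3.56) and Ptgs2 (-2.85). KO M0 replicate 1 lay below the others of its group for Ddit3 (0.19) and Hpgd (0.50). KO M0 replicate 2, of set 4, lay above the others of its group for Cd80 (3.19), Dnaaf4 (-2.74), Gbp2b (-5.43), Lyz2 (5.82), Nos2 (-0.62), Serpina3f (-5.74) and Shpk (0.47). KO M0 replicate 2, of set 4, lay below the others of its group for Asns (0.34), Aspm (0.82), C5ar1 (3.26), Ccnb1 (1.50), Cdkn2c (2.23), Cenpf (0.84), Cxcl14 (2.56), Hilpda (0.30), Kif11 (-0.32) and Tnf (-1.19). KO M0 replicate 3 lay above the others of its group for Dnajb9 (1.88) and Pfkfb1 (2.87). KO M0 replicate 3 lay below the others of its group for Mmp25 (-7.96). KO M0 replicate 4 lay above the others of its group for Drd1 (-5.78). Of these values 13 were of KO M1 replicate 3 and 17 of KO M0 replicate 2, both of set 4, and all are part of the means given for each gene.

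The response to LPS and interferon-gamma differed between KO and WT cells, by the test of the difference itself, in 97 of the 207 named genes. Over all genes the share was 30.5%, and the named genes include some chosen for a large difference. Values are KO minus WT on the log2 scale. For Aspm, Ccl22, Cenpf, Dnaaf4, Drd1, Ehhadh, Gbp2b, H2-DMb2, Hamp, Lpar3 and Pimreg no array of at least 1 of the 4 groups was well above background, so that the value is a fitted one near background and not a measured size. The call was lost under at least 1 alternative for 23 of the genes with a difference, which were Adm, Arrdc4, Asl, Aspm, Ccl22, Ccna2, Cdkn2c, Cenpf, Chac1, Ciita, Clec10a, Gbp2b, H2-DMb2, Hamp, Hif1a, Idh1, Il10, Irak4, Jak2, Ldha, Olr1, Slc16a3 and Slc7a2, most often for Asl and Olr1 (11 alternatives each), Il10 (10) and Idh1 (9), and for Hamp without set 4 (5.81). The response was higher in KO, and most so, for Lpar3 (7.61), Rtn4r (7.38), Rasd2 (6.66), Efcc1 (6.47), Drd1 (6.30), Derl3 (6.15), Hamp (6.01), Inhba (4.34), Cdkn1c (4.18), Atp6v0d2 (4.14), Optn (3.95), Pimreg (3.21) and Eno2 (3.16). Smaller positive differences were those of Slamf1 (3.14), Ccl22 (3.1), Herpud1 (3.07), Bhlhe40 (3.06), Phgdh (3.05), Asns (3.05), Il12b (2.96), Chac1 (2.93), Insig1 (2.80), Mrc1 (2.78), Arrdc4 (2.77), Mki67 (2.76) and Vegfa (2.70). Next in size came Cenpf (2.66), Slc16a1 (2.66), Mvd (2.62), Mcm2 (2.61), Dnajb9 (2.48), Hyou1 (2.48), Ddit3 (2.48), Ccnb1 (2.24), Olr1 (2.17), Aspm (1.94), Hk2 (1.93), Nfkbib (1.89) and Adm (1.84). Then followed Tlr2 (1.65), Slc7a2 (1.62), Top2a (1.59), Ticam2 (1.59), Ccna2 (1.50), Ciita (1.50), Hspa5 (1.39), Hif1a (1.31), Gas6 (1.27), Jak2 (1.14), Tnfaip3 (1.1), Cd68 (0.63) and Ldha (0.43). The smallest positive difference was that of Asl (0.37). The response was lower in KO, and most so, for Gbp2b (-3.83), Dnaaf4 (-3.62), Arg1 (-3.50), Calhm2 (-3.40), Cd300lb (-3.38), Tmem119 (-3.35), Rab42 (-3.33), Txnip (-3.17), Adora3 (-3.09), Pfkfb1 (-3.07), Zfyve28 (-2.95), Ehhadh (-2.88) and Tlr13 (-2.73). Smaller negative differences were those of Tlr8 (-2.51), Clec10a (-2.44), Kctd12b (-2.39), P2ry12 (-2.29), Arrdc3 (-2.17), Ripk3 (-2.11), Shpk (-2.06), C5ar1 (-2.02), Aldoc (-1.99), H2-DMb2 (-1.93), Maf (-1.91), Tlr1 (-1.90) and Il10 (-1.88). Next on this side came Acaa2 (-1.75), Pdk2 (-1.68), Cd80 (-1.60), Scarb1 (-1.53), Socs1 (-1.53), G6pdx (-1.48), Irak4 (-1.4), Cdkn2c (-1.37), Gpx1 (-1.29), Acadm (-1.26), Pycard (-1.25), Suclg2 (-1.25) and Pts (-1.21). Then, with smaller values, came Batf2 (-1.18), Spi1 (-1.17), Slc16a3 (-1.04), Idh1 (-0.79) and Casp1 (-0.73).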

How the results depend on the processing

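Under the alternatives, the number of genes called in KO M1 against KO M0 stayed within 1.5 times in both directions, except that without a filter on dim probes 13373 rose, and 6281 genes then had a higher response in KO than in WT. That setting tests more genes. Leaving out 1 KO array at a time gave 7465 to 8457 higher and 5937 to 6082 lower genes, and 3616 to 4138 higher and 3668 to 3839 lower for the genotype difference. With the replicate number as a block, which does not pair the samples, 8406 genes rose and 6413 fell, and the difference was called in 4181 and 4180. With the set as a block 9223 rose and 6928 fell, and the difference was called in 5289 and 4790, and with the slide 8499 and 6208. Over the alternatives, 15 of 3896 values of the 207 genes named lost a call of the response and 9 gained one, and 103 and 70 of 3887 did so for the genotype difference. Changes of sign were not counted where a gene was called neither in the main fit nor under the alternative. Where it was called in either, the response kept its direction with these exceptions. After quantile normalization it was -0.26 for Adgre1, -0.36 for Cd68, -0.62 for Csf1r and -0.12 for Rela. With the mean of a gene's probes it was -0.43 for Csf1r and -0.70 for Tlr4. With normexp correction it was 0.046 for H2-DMb2. For E2f7 it was 0.41 where a probe had to be well above background on all arrays compared, which leaves only its dimmer probe. The genotype difference for Pycard was 0.37 with the mean of its probes. Apart from probe and filter choices, the cause was not tested. Differences near background are limited by signal, which is why bounds are given there.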

Other observations

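Genes of the inflammasome and of cell death also responded in KO cells, with 12 of 19 higher and 2 lower (median 1.23, against 0.22 for all genes). Il18bp, which encodes the soluble antagonist of interleukin-18, rose most, at 5.71, 5.61, 5.32 and 5.76 in KO M1, against -0.72, 1.05, -0.79 and -1.66 in KO M0 (6.13 ± 0.74, limma adjusted p = 6.69e-07). Mlkl, the executioner of necroptosis, rose by 3.40 ± 0.18, the death receptor gene Fas by 2.2 ± 0.27, and Casp4, whose product senses LPS inside the cell, by 2.56 ± 0.53. Pycard, the adaptor ASC that joins sensors to caspase-1, was at 1.98, 2.26, 2.48 and 1.96 in KO M1, against 4.04, 3.48, 3.71 and 3.81 in KO M0. It fell with its brightest probe (-1.59 ± 0.25, limma adjusted p = 1.79e-05), but was not called with the mean of its probes (-0.096). The necroptosis kinase gene Ripk3 fell too (-0.99 ± 0.26). The sensor gene Nlrp3 was not called (0.52 ± 0.28) but was without set 4 (0.76). The response was lower in KO than in WT for 6 of the 19 and higher for 1, against 15.2% and 15.3% of all genes. With the set as a block it was lower for 10 and higher for 1. Ripk3 fell in KO and rose in WT (-0.99 and 1.12, difference -2.11 ± 0.36), and Casp1 rose less in KO (-0.73 ± 0.15).

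Among 11 Toll-like receptor genes other than Tlr4, 3 rose and 4 fell in KO cells, against 32% and 24.4% of all genes. The endosomal receptor gene Tlr8 was at 1.64, 1.72, 0.86 and 1.27 in KO M1, against 4.02, 3.95, 3.60 and 3.35 in KO M0 and fell (-2.36 ± 0.25, adjusted p = 7.10e-08), and Tlr13, a sensor of bacterial ribosomal RNA, fell by 2.17 ± 0.17. Neither was lower in WT, where the responses were 0.16 ± 0.25 and 0.55 ± 0.17, and the differences were -2.51 ± 0.35 and -2.73 ± 0.25. Tlr1, a partner of Tlr2, fell in KO and rose in WT (-0.71 and 1.19, difference -1.90 ± 0.25). Tlr2, a receptor for bacterial lipoproteins, was not called in KO and fell in WT (-0.0044 and -1.65, difference 1.65 ± 0.37).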
